A study of Mus musculus with 4 samples.

Results

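Long intergenic noncoding RNAs (lincRNAs) were measured in mouse liver with the lincRNA probes that an Agilent SurePrint G3 Mouse GE 8x60K array carries beside its probes for protein-coding and other genes. These probes were recognised by the design prefix of their names, and they numbered 16251 of the 55681 non-control probes of the array. They covered 4622 loci of the 36162 genes and loci on the array, each probe being 60 bases long and printed at 1 spot. Of these loci, 2113 overlap another lincRNA locus on the same strand, so counts of loci below are not counts of distinct transcripts. The groups were females and males that were microsomic (MF and MM) or controls (CF and CM), and each of these 4 groups was represented by 1 array. A microsomic (M) mouse is one whose weight at birth was in the lowest part of the range for its gender in an inbred colony, and the controls (C) were littermates of normal weight. The sources used here name no altered gene and no given agent in any group. The labels give whole liver, strain C57BL/6J and embryonic day 20, whereas the study's methods describe newborn C57BL/6 N mice and 3 replicates per group. They do not state if 1 mouse or a pool gave the RNA of an array. With 1 array per group no spread between replicates could be computed, so values for a pair of arrays carry no p-value, and precision is limited by how few arrays there are. The 4 arrays lay on the same slide, with M and C in different columns, so that slide column and group cannot be told apart.

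LincRNAs are transcripts of RNA polymerase II that lie between protein-coding genes and have no long open reading frame. A few are well known: Xist coats and silences an X chromosome in female cells, H19 is an imprinted RNA abundant in fetal liver, Neat1 builds the nuclear paraspeckles, and Malat1 is retained in nuclear speckles. Most others were first listed as intervals of the genome where chromatin marks or cDNA fragments pointed to transcription, often without a known strand. This is why many intervals on the array carry probes for either strand.

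Some probe sequences are shown because the results turn on how the probes of a locus behaved. In every sequence, printed 5′ to 3′ as the array files give it, the capitals mark stretches of 5 bases that hold only C and T and no fewer than 3 C, here called C/T windows, which went with detection as described further on. The first set is the reverse-strand locus at chr4:141100989-141106639 (mm9), where the third of 5 probes gave one of the brightest lincRNA signals of the array and the others lay near background.
A_30_P01017514: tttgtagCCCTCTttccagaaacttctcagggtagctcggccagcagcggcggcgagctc
A_30_P01025392: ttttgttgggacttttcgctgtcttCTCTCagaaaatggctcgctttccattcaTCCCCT
A_30_P01019512: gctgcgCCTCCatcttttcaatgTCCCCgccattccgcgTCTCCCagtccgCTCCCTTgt
A_30_P01028460: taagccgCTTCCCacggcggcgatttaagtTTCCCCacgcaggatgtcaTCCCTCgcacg
A_30_P01019925: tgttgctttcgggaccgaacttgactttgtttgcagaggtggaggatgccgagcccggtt

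The second set holds the single bright probe of each of 2 loci on chromosome 6, at chr6:83368261-83407280 and chr6:145647711-145756861, both on the forward strand and both richer in such windows than their neighbours.
A_30_P01032016: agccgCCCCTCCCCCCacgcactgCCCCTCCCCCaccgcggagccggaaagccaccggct
A_30_P01022273: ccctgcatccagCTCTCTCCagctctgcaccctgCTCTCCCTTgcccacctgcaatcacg

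The third set comes from the forward-strand locus at chr1:162933979-162944379, whose 8 probes all gave lower signal on the M arrays, and 4 of them are shown.
A_30_P01020326: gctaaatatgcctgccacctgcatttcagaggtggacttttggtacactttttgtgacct
A_30_P01022303: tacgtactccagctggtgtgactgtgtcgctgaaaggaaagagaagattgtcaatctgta
A_30_P01021332: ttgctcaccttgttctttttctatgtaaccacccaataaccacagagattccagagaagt
A_30_P01026406: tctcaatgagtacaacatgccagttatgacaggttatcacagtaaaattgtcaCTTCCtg

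The last set holds 2 of the 5 probes of XIST and 2 of the 5 of NEAT1, lincRNAs that the array lists under their own names.
XIST, A_30_P01022001: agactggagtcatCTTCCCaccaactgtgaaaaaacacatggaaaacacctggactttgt
XIST, A_30_P01032945: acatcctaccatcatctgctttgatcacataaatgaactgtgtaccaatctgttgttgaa
NEAT1, A_30_P01021631: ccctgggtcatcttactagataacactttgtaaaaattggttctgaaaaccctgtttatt
NEAT1, A_30_P01025798: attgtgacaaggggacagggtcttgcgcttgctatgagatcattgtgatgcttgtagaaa

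The level of a probe is given as the log2 of its processed signal relative to the 75th percentile of the array, so that 0 is the signal of a fairly bright spot. That percentile was 893 on MF, 676 on CF, 925 on MM and 628 on CM. Spots with an outlier flag of the scanner software on any array were left out, which removed 368 lincRNA probes, 301 of them flagged on MF, and left 15883 probes in 4599 loci. The hepatocyte genes Alb, Afp, Ttr, Apoa1, Apoa2, Fgb and Serpina1a and the globin genes of erythroid cells lay at 8.59 or higher on each array. The genes Ddx3y and Eif2s3y of the Y chromosome were well above background on the male arrays alone, and so was Uty. Ddx3y, for example, lay at 2.61 on MM and 1.47 on CM. Kdm5d, a further gene of that chromosome, was not well above background on any array. Between arrays, fewer cells of a type and less RNA per cell cannot be told apart.

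LincRNA probes were detected less often than probes of other genes on each array. The share well above background was 43.5% on MF (95% Clopper-Pearson interval 42.7% to 44.3%), 35.5% on CF (34.7% to 36.2%), 47.7% on MM (46.9% to 48.4%) and 34.2% on CM (33.5% to 34.9%). Probes of other genes reached 69.3% on MF, 64.1% on CF, 70.3% on MM and 62.3% on CM, and negative control spots 0.649%, 2.27%, 2.27% and 1.62% in that order. Both M arrays thus had higher lincRNA shares than both C arrays, by more than the intervals, which cover counting error only and no difference between animals or arrays. The shares of the other genes were also higher on both M arrays.

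On all 4 arrays together, 3531 lincRNA probes (22.2%) were well above background, against 55.8% of the probes of other genes, and 6463 (40.7%) were on none, against 22.8%. The most frequent mixed pattern was detection on MF, MM and CF without CM, with 1370 probes, and the lowest signal counted as well above background was also highest on CM, at -4.68 against -5.48 on CF, -5.83 on MM and -5.98 on MF. Detected lincRNA probes were dim: their median level was -3.74 on MF, -3.15 on CF, -3.53 on MM and -2.53 on CM, where detected probes of other genes had medians of -0.60, -0.11, -0.54 and -0.02 in the same order.

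**Figure D1:**
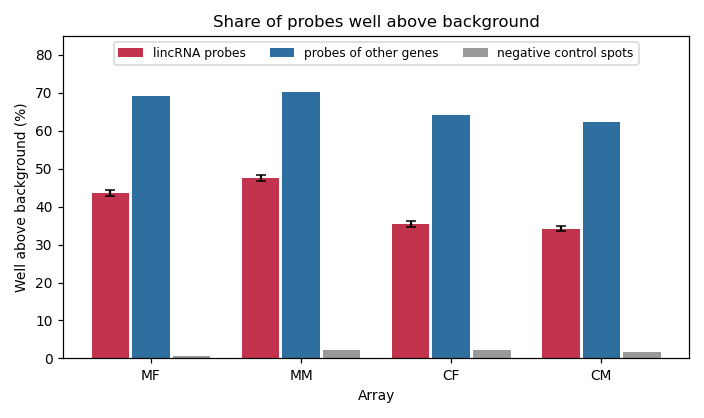
Share of probes well above background (vertical axis, percent) on each array, for lincRNA probes (bars with 95% Clopper-Pearson intervals), probes of other genes and negative control spots. LincRNA shares run from 34.2% on CM to 47.7% on MM and stay below those of other genes, 62.3% to 70.3%, on each array.

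Counted by locus, 2072 of the 4599 loci (45.1%) had at least 1 probe well above background on all 4 arrays. Of the 3279 loci with 3 or more probes, 212 had all of their probes detected on all 4 arrays and 1429 had some, and in 911 exactly 1 probe was. Detection of a locus therefore rested more often on a single probe than on its whole set. The share of loci whose brightest probe was detected on all 4 arrays ran from 35.3% on chromosome 13 to 51.9% on chromosome 11. The X chromosome, with 180 loci, had 37.8%, and the Y chromosome had 0 loci.

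The array holds an internal check of its own error, since 71 unflagged lincRNA probes are printed a further time under another gene's name with the same 60 bases. In 22 of these pairs both spots were well above background on all 4 arrays. Their mean levels differed by a median of 0.14 and at most 0.84. Their MF minus CF differences, however, were a median of 0.41 apart and their MM minus CM differences 0.55 apart, with 90th percentiles of 1.61 and 1.65. In 8 of the 22 pairs the same sequence gave MF minus CF values more than 1.5-fold apart, and in 9 of 22 it gave such MM minus CM values. A difference between arrays at a single lincRNA probe is to be read against that spread. The detection flag of the 2 spots was the same in 55 to 60 of the 71 pairs, depending on the array.

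Different probes of a locus shared level better than they shared the M to C difference. For 688 pairs of neighbouring probes with starts up to 100 bases apart, both detected on all arrays, the Pearson correlation of level across pairs was 0.69, that of MF minus CF 0.38 and that of MM minus CM 0.44. For 210 pairs with starts over 1 kb apart the values were 0.37, 0.09 and 0.14. These pairs share arrays and base composition, and neighbours may overlap in sequence, so the correlations are descriptions. Within loci with 3 detected probes (242 loci), the brightest and dimmest lay a median of 1.33 apart (log2), against 2.64 in 476 other genes with 3 detected probes.

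Of 1067 intervals with probes on either strand, 310 had a detected probe on both strands, 491 on a single strand (227 on the forward strand) and 266 on neither. In the 290 intervals where the brightest probe of each strand was well above background on all 4 arrays, these probes differed by a median of 1.64 (log2), and 191 differed by more than 1. With the looser flag of the software (a signal positive and significant against background) 691 intervals counted as detected on both strands and 300 on a single strand, so the count of single-strand intervals depends on the flag.

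Detection went with nearby genes on the same strand. Of 2819 lincRNA probes with a probe of another gene within 5 kb on the same strand, 34.2% were well above background on all 4 arrays. The share was 15.9% for 2245 probes with such a neighbour on the other strand alone, 21.4% for 7894 probes at over 5 and up to 50 kb, and 17.3% for 2810 farther away. The share was thus highest next to a gene on the same strand. Within the same-strand group, 44.7% were detected where the neighbour was detected, and 22.5% where it was not. In the 665 pairs where both were detected, the lincRNA probe was the dimmer in 66.5%, the median difference in level was -0.70 (log2), and the correlations across pairs were 0.29 for level, 0.33 for MF minus CF and 0.41 for MM minus CM. The pairs share their arrays, and the array gives no means to tell a separate lincRNA from an unlisted end of the neighbour.

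Detection also moved with the sequence of the probe. LincRNA probes without a C/T window were detected on all 4 arrays in 16.0% of 8434 cases, those with 1 to 3 windows in 23.7% of 5871, those with 4 or 5 in 41.4% of 1035 and those with 6 or more in 65.6% of 543. Overlapping windows were counted separately, on the probe strand. For probes of other genes the same classes gave 54.2%, 55.8%, 63.7% and 78.1%, a smaller span. Windows of A and G, which are the same letters on the opposite strand, did not go with higher detection: 24.9% with none and 19.6% with 6 or more. GC content alone spanned less, from 18.1% under 40% GC to 31.3% over 50% GC.

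The M to C differences of detected lincRNA probes also moved with these windows, in opposite ways in the genders. From 0 windows to 6 or more, the median MF minus CF difference went from -0.29 to -0.02, while the median MM minus CM difference went from -0.08 to -0.70. Among the 911 probes that were alone in being detected in a locus of 3 or more probes, 29.9% held 4 or more windows. This was so for 6.91% of the other probes of these loci, and for 9.94% of the probes of loci where all were detected. The part of the windows in the differences was not tested.

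**Figure D2:**
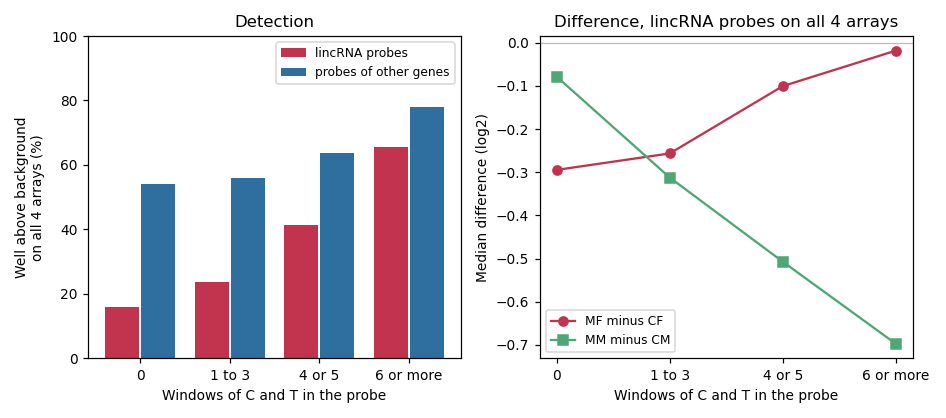
Left, share of probes well above background on all 4 arrays (percent) by number of C/T windows in the probe, for lincRNA probes and probes of other genes. Right, median M minus C difference (log2) of lincRNA probes detected on all 4 arrays by the same classes. Detection of lincRNA probes goes from 16.0% to 65.6%, and the median difference goes from -0.08 to -0.70 in males and from -0.29 to -0.02 in females.

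The 10 brightest loci, ranked by the brightest probe of each, were led by H19. Among them 2 had 3 or more probes that were all bright: H19 itself and a forward-strand locus at chr6:116123643-116124550, whose 3 probes lay at 6.27 to 7.61 on MF, 6.06 to 6.85 on CF, 6.88 to 6.92 on MM and 6.68 to 7.16 on CM. In the RefSeq order of genes (GRCm38.p6, used for names alone) the pseudogenes Gm8203 and Gm8213 lie between the array genes Tmcc1 and 9530062K07Rik that flank it. Whether the probes of this locus also match transcripts of other genes was not tested, so its signal may not come from a lincRNA. The 3 probes of this locus were within 1.05 (log2) between M and C of either gender. Its brightest probe gave 0.77 in MF minus CF, which turned to -0.052 with quantile normalization.

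Of the other 8 bright loci, 4 had a single unflagged probe and 4 had 5 probes of which a single probe was bright. At chr4:141100989-141106639, the first locus shown above, the bright probe A_30_P01019512 lay at 9.83 on MF, 8.20 on CF, 8.17 on MM and 8.66 on CM. Its 4 neighbours, all within the same locus, lay between -7.68 and -3.70 on the 4 arrays. The bright probe has 7 C/T windows, but a neighbour with 6, A_30_P01028460, was well above background on MM alone, at -4.89. At chr6:83368261-83407280, the bright probe A_30_P01032016 with 13 windows lay at 8.52 on MF, 7.26 on CF, 6.59 on MM and 8.85 on CM, while a neighbour starting 60 bases away lay between -3.91 and -2.35. In loci such as these the level of the locus is the level of 1 probe.

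**Figure D3:**
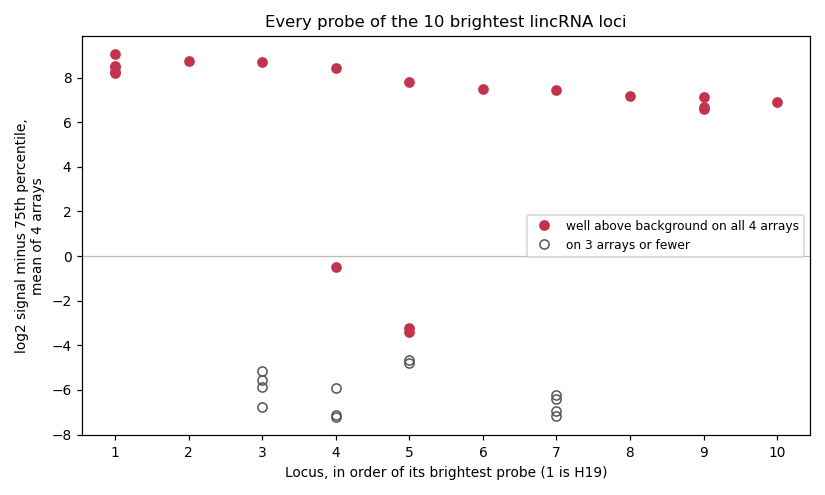
Every unflagged probe of the 10 loci with the brightest probes, as the mean over 4 arrays of the log2 signal minus the 75th percentile (vertical axis). Filled points were well above background on all 4 arrays, open points on 3 or fewer. Locus 1 (H19) and locus 9 hold 5 and 3 bright probes, and in the loci with 5 probes other than H19 a single probe is bright.

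In all 12 loci carry lincRNA names on the array, and their probes ranged from detection by every probe on every array to detection by none. H19, an imprinted growth-related RNA, was the brightest: its 5 probes lay at 8.63 to 9.60 on MF, 7.71 to 8.97 on CF, 7.89 to 8.76 on MM and 7.55 to 9.07 on CM. The groups overlapped, and the 5 probes gave MF minus CF differences from -0.04 to 1.70 and MM minus CM differences from -0.32 to 0.61. A separate H19 probe outside the lincRNA design lay at 9.59 on MF, 9.68 on CF, 9.17 on MM and 9.17 on CM. TUG1, a conserved lincRNA, had 5 of 5 probes detected on all 4 arrays, at -0.13 to 2.77. MF minus CF was negative in 5 of 5, from -0.77 to -0.20, and MM minus CM lay between -0.16 and 0.40.

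NEAT1, the scaffold of paraspeckles, had 5 probes that agreed in direction in females, as did the 5 probes of TUG1 and the 5 of XIST. Its 5 probes lay at 0.56 to 1.02 on MF and at 1.54 to 2.46 on CF, with no overlap, and at 0.58 to 1.24 on MM and -0.00 to 0.67 on CM. The MF minus CF difference was negative in 5 of 5 probes, from -1.59 to -0.85, and the separate Neat1 probe gave -1.12. In males the same probes were at 0.05 to 0.96 in MM minus CM, while the separate probe gave -0.12. CF was thus the array with the highest NEAT1 signal, and the remaining arrays lay close together. The brightest probe of NEAT1 gave -1.59 in MF minus CF. The limma difference of M and C over both genders was -0.51 (SE 0.57, adjusted p = 0.995 with 4 arrays in the limma fit).

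NEAT2, the array's name for Malat1, had 2 unflagged probes, which lay at 0.73 and 1.45 on MF, 1.33 and 1.40 on CF, -0.65 and -0.19 on MM and 0.50 and 1.46 on CM. MM was lowest in both. The MM minus CM differences were -1.15 and -1.65, and the separate Malat1 probe gave -1.18. A further reverse-strand locus over this gene, chr19:5771425-5848475, had 1 probe beside Malat1 with -1.02 in MF minus CF and -1.49 in MM minus CM. The separate Malat1 probe gave -0.84 in MF minus CF, where the 2 NEAT2 probes gave 0.05 and -0.60, so these probes differed in direction in females. Another locus inside the NEAT2 interval, chr19:5798135-5800557, had 3 detected probes with MF minus CF from -1.16 to -0.61 and MM minus CM from -0.13 to 0.96. In females the detected probes over Malat1 were thus lower in MF except for 1 NEAT2 probe at 0.05. In males the loci over Malat1 shared no single direction.

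XIST followed gender, and its 5 probes also differed between the female arrays. They lay at -1.34 to -0.28 on MF and -0.14 to 1.09 on CF, and on the male arrays they were not well above background except for 2 probes on MM, at -3.87 and -5.60. MF minus CF was negative in 5 of 5 probes, from -1.66 to -0.29, and the separate Xist probe gave -1.41. The level in MF was thus lower than in CF in every probe of this gene, on 1 array of each. TSIX, its antisense partner, had 0 of 5 probes well above background on any array. The separate Tsix probe outside the lincRNA design was well above background on CM alone, at -3.94.

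Among the other names, KCNQ1ot1, an imprinted antisense RNA, had 1 of 5 probes detected on all 4 arrays, at -1.38 on MF, -0.94 on CF, -1.09 on MM and -1.10 on CM. The separate Kcnq1ot1 probe lay at -1.77 on MF, -2.15 on CF, -1.71 on MM and -2.58 on CM, so in females it went the other way. NRON, a repressor of nuclear import of NFAT, had 2 of 5 probes detected on all 4 arrays, and BRN1-A, near the gene Pantr1, had 1 of 4. The BRN1-A probe had a 4.65-fold excess in MM over CM, at -1.16 against -3.38, while 2 of its other 3 probes were well above background on MM alone and 1 on no array. The array's Pantr1 probe, 60 bases away on the same strand, was not well above background on MM, at -5.68, or on CM. HOTAIR, PINC and lincP21 had 0 of 5 probes detected on all 4 arrays. A locus in the Airn region, chr17:12941161-12944859, had 5 of 5 detected at -1.58 to 0.48, and Airn is the imprinted antisense RNA of Igf2r. Its probes were higher in MF than in CF in 5 of 5, by 0.37 to 0.58, and between -0.71 and 0.20 in MM minus CM.

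**Figure D4:**
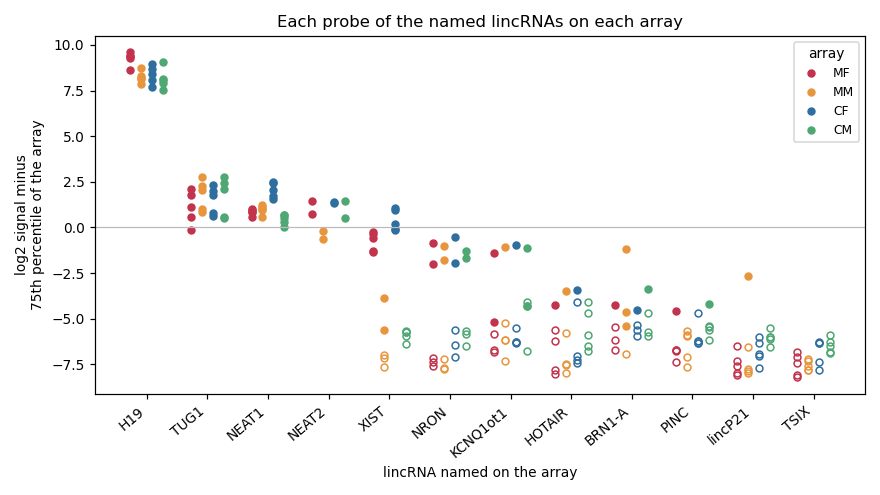
Each unflagged probe of the 12 lincRNAs named on the array, on each array, as log2 signal minus the 75th percentile (vertical axis). Filled points are well above background and open points are not. H19, TUG1, NEAT1 and NEAT2 are detected by every probe on every array, XIST by every probe on MF and CF, and TSIX by no probe.

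A list of 51 known noncoding RNAs was set beside the lincRNA loci by position. Of these, 31 had a probe of that name outside the lincRNA design, 17 had a lincRNA locus at or within 5 kb on the same strand, and these loci numbered 38, of which 37 had an unflagged probe and 30 a probe detected on all 4 arrays. In MF vs CF, 33 could be compared, and 3 were over 1.5-fold higher and 13 lower, with a median of -0.25, against 19.9% higher and 21% lower of all genes compared. In MM vs CM, 33 could be compared, and 4 were higher and 11 lower, with a median of -0.32, against 17.7% and 23.1%. Several of the loci lie over the same RNA, Tug1 and Dleu2 for example, so these are not counts of separate RNAs. One of these loci, chr11:3542140-3546888 on the reverse strand beside the array's Tug1 probe, was lower in MF and higher in MM with all of its 3 probes, although with the array position trend removed its brightest probe gave 0.38 in MF minus CF. They lay at -2.70 to -2.15 on MF, -1.82 to -1.33 on CF, -0.76 to -0.01 on MM and -1.76 to -1.16 on CM. A second locus over Tug1, chr11:3539787-3548811, had 3 probes at -0.11 to -0.69 in MF minus CF and -0.46 to -0.68 in MM minus CM, so that loci of this gene did not share a direction in males. Over the Mir17hg host gene, the 3 probes of chr14:115443612-115445950 were lower in M of both genders, at -0.87 to -0.37 in MF minus CF and -0.57 to -0.21 in MM minus CM. The array's own Mir17hg probe on the same strand gave -0.69 in MF minus CF but 0.25 in MM minus CM, the other direction in males.

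To compare M with C within each gender, a locus was represented by its brightest probe and counted when at least 1 array of the pair was well above background. Where the other array was not, the fold was taken against a limit near its lowest detected signal and is a lower bound. In MF vs CF, 1500 of 3418 loci (43.9%) differed by more than 1.5-fold, where 40.9% of all genes compared did. Higher were 666 loci and lower 834, and 496 of the 1500 are bounds. In MM vs CM, 2121 of 3650 loci (58.1%) differed, 721 higher and 1400 lower, with 672 bounds, where 40.8% of all genes and 38% of the other genes did. LincRNA loci thus passed the fold at close to the share of all genes in females and at a larger share in males. Because lincRNA probes are dimmer, the male values were also set beside other genes of like brightness, over features detected on all 4 arrays. At mean levels under -4 the median MM minus CM difference was -1.05 for lincRNA loci (74.6% lower) and -1.02 for other genes (68.9% lower). From -4 to -2 the medians were -0.53 and -0.28, and from -2 to 0 they were -0.26 and 0.01. From 0 to 2 the medians were -0.21 and 0.08, and over 2 they were -0.28 and 0.04. The dimmest other genes were thus lower in MM as well, and the male difference was largest in the dimmest class. Each feature had to be well above background on CM, where the lowest such signal was -4.68, against -5.83 on MM. Dim features therefore entered more easily when lower on MM, so a negative difference in the dimmest class is partly set by this filter. For dim loci, counts that require detection on both or all arrays share that tilt. In the classes from -2 upwards the median was negative for lincRNA loci alone. The cause of the male difference was not tested.

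The direction depended on scaling. Higher loci made up 44.4% of the 1500 in MF vs CF and 34.0% of the 2121 in MM vs CM. Without scaling between arrays the shares were 73.4% and 60.1%, with median centring 51.7% and 45.1%, with the GC trend removed 54.4% and 49.5%, and with the trend over array position removed 54.5% and 47.2%. With flagged spots kept the share in MF vs CF was 52.3%, with the mean over the probes of a locus the shares were 28.1% and 16.8%, and with both arrays required well above background 34.2% and 20.3%. The median MM minus CM difference over loci detected on both arrays was -0.52 against -0.07 for all genes, a gap of -0.46. Centring and no scaling shift every feature of an array alike and cannot change that gap. In the settings that can, it was -0.36 with quantile normalization, -0.20 with normexp and quantile normalization, -0.41 with the GC trend removed and -0.41 with the position trend removed. In MF minus CF the medians were -0.21 and -0.11, a gap of -0.10 that went to -0.01 with quantile normalization.

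Brightness divided the loci further. Of 147 loci with a mean level over 2, the median MF minus CF difference was 0.99, with 83 over 1.5-fold higher and 11 lower, and the median MM minus CM difference was -0.28, with 17 higher and 52 lower. The 1857 dimmer loci detected on all arrays had medians of -0.21 and -0.40. Among the bright loci, those measured by a probe with 4 or more C/T windows (56 loci) had medians of 2.02 and -1.09, and those with no window (46 loci) had 0.01 and -0.06. The 31 bright loci whose 3 or more probes were all detected had medians of 0.17 and -0.01, and the 28 with a lone detected probe 1.99 and -0.60. The large female excess of bright loci was thus seen where a locus was read from a window-rich or lone probe. Both the probe of a locus and its mean level were taken over the 4 arrays, MF included. A probe high on MF alone can therefore enter the bright class through that array, so the female medians of this class are partly set by the choice. The part of probe sequence in the female excess was not tested.

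Over both genders, 3166 loci could be compared in each. The same direction past 1.5-fold was shared by 269 (8.5%), against 6.98% of all genes compared, 63 higher and 206 lower in M. Opposite directions were shown by 511 (16.1%), against 9.85% of all genes, 335 of them higher in MF and lower in MM. The comparisons share no array. Without scaling the 310 loci with a shared direction were 84.8% higher, and with the array position trend removed 55.8% of 242 were, against 23.4% of the 269.

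**Figure D5:**
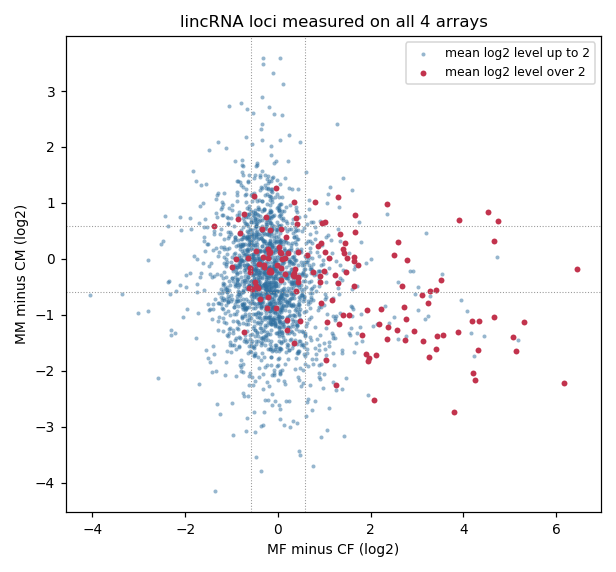
Difference between microsomic and control arrays in females (horizontal axis, log2) and males (vertical axis, log2) for each lincRNA locus detected on all 4 arrays, with 1.5-fold marked by dotted lines. Loci with a mean level over 2 spread to the right, with a median of 0.99 in females, and the cloud of dimmer loci is centred at -0.21 and -0.40. The mean level includes MF, so a probe high on MF alone can enter the bright class.

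Agreement between the probes of a locus was limited. Of 1239 loci with 2 or more probes detected on both arrays of MF vs CF, the probes of 629 (50.8%) all differed in one direction, 125 higher and 504 lower. For the other genes of the array this held for 61.9% of 3917. In MM vs CM it held for 636 of 1115 loci (57.0%), 139 higher and 497 lower, and for 56.5% of 3729 other genes. With 3 or more detected probes, 251 of 604 loci agreed in females and 239 of 506 in males. Of 379 loci with 3 or more probes detected on all 4 arrays, 36 were lower with every probe in both genders and 7 were higher with every probe, where 561 other genes gave 18 and 11. Probes that lie close together in sequence are not independent of each other.

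Loci on which several probes agreed are described next, chosen for the size of their median probe difference, so the differences are a description. The locus at chr1:162933979-162944379 (forward strand) overlaps the array gene Zbtb37, a zinc finger gene read from the other strand with a probe 125 bases away. Its 8 probes, between positions 162939043 and 162939783 of chromosome 1, lay at -7.00 to -2.58 on MF, -3.86 to -1.12 on CF, -6.44 to -2.28 on MM and -3.29 to -0.44 on CM. On MF 2 of them and on MM 4 of them were well above background, while all 8 were on CF and CM. The brightest, A_30_P01020326, was 2.76-fold lower in MF than in CF and 3.57-fold lower in MM than in CM. Signal was thus lower on both M arrays in each of the 8 probes shown in part above, whereas the Zbtb37 probe differed by 0.06 in females and 1.19 in males. Limma over both genders gave -1.65 (SE 0.42), with an adjusted p of 0.995 in limma's fit.

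The reverse-strand locus at chrX:54636915-54638388 had 3 probes that were lower in M of both genders. They lay at -2.85 to -1.77 on MF, -1.02 to -0.03 on CF, -2.61 to -1.61 on MM and -1.80 to -1.02 on CM. The differences were -1.83 to -1.67 in MF minus CF and -0.81 to -0.59 in MM minus CM. The nearest gene, Rbmx, an RNA-binding splicing regulator with a probe 2511 bases away on the same strand, was lower as well, at -0.77 in MF minus CF and -0.50 in MM minus CM. The lincRNA probes and the gene probe thus shared their direction in both genders.

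At chr10:94870971-94871658 (reverse strand) both unflagged probes were higher in M. The brightest lay at -1.50 on MF, -2.77 on CF, -1.09 on MM and -3.50 on CM, and the second at -3.06, -4.17, -2.17 and, not well above background, -6.15 in the same order. The excess of the brightest probe was 2.43-fold in females and 5.32-fold in males, but with flagged spots kept the locus gave -0.76 in MM minus CM. Socs2, a suppressor of growth hormone signalling with a probe 4079 bases away on the same strand, was also higher in M, by 0.96 and 1.22.

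In males, 5 loci were chosen as the largest excesses of MM over CM with 3 or more agreeing probes, and 4 of them lie near a gene on the same strand that was also higher in MM. At chr1:138528250-138538250 (forward strand), 7 of 10 probes were well above background on MM, at -2.74 to -0.78. On CM 4 of these were, at -3.39 to -2.26, and the 3 remaining probes, over 5 kb downstream, were well above background on no array. The differences of the 4 probes were 1.48 to 2.18 in MM minus CM and -0.71 to -0.17 in MF minus CF. Zfp281, a zinc finger transcription factor 4928 bases away, differed by 1.43 in males and 0.82 in females, so that in females gene and locus went opposite ways.

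The locus chr3:79069438-79073704 (reverse strand) was higher in MM by 1.11 to 1.28 and in MF by 0.43 to 1.05 with its 3 probes, and 4921511C10Rik, 13841 bases away, by 2.14 and 0.98. Near Cdyl2, a chromodomain gene 5612 bases away that was higher by 1.53 in MM and 0.08 in MF, the 3 probes of chr8:119092623-119094219 were at 0.90 to 1.25 in MM minus CM and at -0.69 to -0.02 in MF minus CF. At chr10:39666719-39679959, 196 bases from the pseudogene Mfsd4b3-ps (1.68 in MM minus CM), the 3 probes were higher by 0.73 to 1.76 in MM, although with normexp and quantile normalization the brightest gave -0.081. In each of these 3 loci the probes lay within about the same levels, -2.83 to 0.32 over the arrays. The locus chr18:36449530-36456800 differed from the rest: its 6 detected probes were higher in MM by 0.80 to 1.57, whereas Pura, which encodes a DNA- and RNA-binding protein and lies 8635 bases away, gave -0.91.

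A group of 3 overlapping forward-strand loci on chromosome 17 held probes that were bright on MF and differed widely between arrays. RefSeq lists an 18S ribosomal pseudogene, Rn18s-rs5, and the noncoding RNA AY036118 among the genes between the flanking array genes Olfr136 and Pgk2. Whether the probes of these loci also match ribosomal RNA or its precursor was not tested, so their signal may not come from a lincRNA. The 3 probes of chr17:39983902-39985688 lay at 5.08 to 8.99 on MF, 3.25 to 5.09 on CF, 3.63 to 5.49 on MM and 3.46 to 4.79 on CM. The 3 of chr17:39982023-39983277 lay at 3.05 to 7.31 on MF, 2.20 to 5.99 on CF, -0.00 to 5.39 on MM and 3.33 to 6.56 on CM. The first locus was higher in MF by 1.59 to 3.90 and in MM by 0.17 to 0.76, whereas the second was higher in MF by 0.85 to 1.75 and gave -3.33 to -1.17 in MM minus CM. The third, chr17:39960567-39992817, holds 4 probes spread over both stretches, of which the 3 upstream gave -3.57 to -2.65 in MM minus CM and the downstream probe 0.30. In males the upstream and downstream stretches thus went opposite ways.

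In females the remaining loci with agreeing probes included chr12:110909258-110913909, which lies between the array genes 6430411K18Rik and Mirg in the imprinted region of chromosome 12. Its 3 probes lay at -0.63 to 0.44 on MF, -2.14 to -0.73 on CF, -1.18 to -0.06 on MM and -0.62 to 0.07 on CM, with CF lowest in each. They were 1.17 to 1.88 higher in MF than in CF, and the array's Mirg probe, from a host gene of miRNAs of this region, was 1.60 higher. In MM minus CM the probes of the locus gave -0.55 to 0.11 and the Mirg probe 0.68. A lincRNA locus over Mirg itself, chr12:110973190-110987668, rose less in females, with 3 probes at 0.10 to 0.57 in MF minus CF. Lower in MF with 3 of 3 probes was chr15:96597330-96663683 on the forward strand, at -2.49 to -0.76 in MF minus CF. Its 2 downstream probes gave -2.77 and -2.28 in MM minus CM, and the upstream probe 1.28.

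The largest folds shared by both genders were mostly read from a single probe. Of 2004 loci detected on all 4 arrays, 203 shared a direction past 1.5-fold, 27 higher (1.35%) and 176 lower (8.78%), where 2.9% and 4.04% of all genes and loci did. The lowest signal well above background was higher on the C arrays than on the M arrays. This filter therefore favours dim loci that are lower in M. The largest mean decrease belonged to chr16:91174611-91200786 (reverse strand), whose probe A_30_P01032033 lay at -4.27 on MF, -2.92 on CF, -3.97 on MM and 0.17 on CM. The other 4 probes of that locus were well above background on no array except for 1 on MF and CM. The probe A_30_P01019993 of chr19:44651000-44651447 lay at -4.19 on MF, -1.61 on CF, -5.04 on MM and -2.90 on CM, with differences of -2.59 in females and -2.14 in males. It had the lowest limma p of the named loci, 6.4e-04 unadjusted and 0.965 after Benjamini-Hochberg adjustment in limma. On the higher side, A_30_P01027183 of chr6:83391748-83398316 lay at 8.32 on MF, 3.57 on CF, 5.96 on MM and 5.28 on CM, and its detected neighbour differed by 0.45 in females and -0.52 in males.

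Some of the largest differences were read from a single probe. At chr6:145647711-145756861 the probe A_30_P01022273 shown above lay at 7.69 on MF, 1.53 on CF, 0.63 on MM and 2.85 on CM. Its excess in MF over CF was 71.6-fold, and it was lower in MM than in CM by 4.67-fold, while the other 5 probes measured on MF and CF differed by -0.42 to 0.75. At chr6:5311375-5328075, A_30_P01031578 with 7 windows lay at 5.44 on MF, 0.27 on CF, -0.34 on MM and 1.12 on CM, a 36.1-fold excess in MF, and an upstream neighbour, also with 7 windows, gave a difference of 1.38. The MF array was the high one in both.

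Between the genders, 511 loci were over 1.5-fold higher in males among C and among M, and 85 were higher in females, with bounds counted, of 3211 loci compared in both (15.9% and 2.65%). Over all genes and loci of the array the shares were 9.68% and 5.27%, so all genes leaned to males as well. The 3 loci most higher in females were chr9:51905865-51911474, XIST and chr8:35650475-35664200. XIST was the one of these with more than 2 probes in agreement. At the first, A_30_P01025410 lay at 4.30 on MF, 1.27 on CF, -2.44 on MM and -1.53 on CM, and the other 4 probes were well above background on no array except for 1 on MM. The 3 loci most higher in males lie on autosomes, and each was read from 1 probe.

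Limma was fitted over all 4 arrays with a term for gender, so that a difference common to both genders is tested with 1 residual degree of freedom. It covered 19299 genes and loci detected on all 4 arrays, 2004 of them lincRNA loci. In simulated data, 200 features each were changed by a log2 of 1, 2 or 4. The noise of each feature was a residual difference of these arrays, shuffled over the features, so it did not follow brightness as in the arrays. At each size 0 of the 200 had an adjusted p under 0.05 in limma. A lack of calls after adjustment therefore does not show that M and C were alike. None had an adjusted p under 0.05 (0 of 2004 lincRNA loci, 0% of all, smallest adjusted p 0.965 in limma). At an unadjusted limma p under 0.05 there were 154 lincRNA loci (7.68%), 24 higher and 130 lower in M, against 4.41% of all genes and loci tested. Among dim loci the required detection on all 4 arrays, with its higher limits on the C arrays, favours lower values in M. The split and the excess also depended on scaling. Without scaling limma gave 142 higher and 30 lower (8.58% of lincRNA loci against 11.8% of all), and with the array position trend removed 62 higher and 40 lower, against 4.01% of all at that p. With normexp and quantile normalization the shares were 1.86% and 2.13%. The threshold of the study's methods, an unadjusted p under 0.01 with over 1.5-fold, was passed by 25 lincRNA loci (1.25%), 3 higher and 22 lower, and by 0.845% of all. With the array position trend removed, 5 of 1961 lincRNA loci (0.255%) had an adjusted p under 0.05 in limma, all 5 of them higher in M, which was close to the 0.275% of all genes and loci tested.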

How the data were processed

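RNA of 4 livers or liver pools was labelled with Cy3 and hybridised to 4 arrays in 1 colour. The authors deposited 1 scanner table per array, made with Agilent Feature Extraction 10.7.3.1, whose processed signal is an intensity, background-subtracted and detrended within the array but not normalized between arrays. Per the file headers, probe positions are on mm9. A deposited table of values equalled that intensity in all 62976 spots of each array.

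Control spots were removed, as were spots that the software flagged as outliers on 1 or more arrays, and the log2 processed signal was taken minus the 75th percentile of each array. Well above background is the software's own flag. A locus was represented by its brightest unflagged probe (mean of the 4 arrays). Pairs of arrays were compared at 1.5-fold, with a bound, "at least", where 1 array was not well above background: that array was then set to the higher of its own signal and its lowest signal well above background. M and C over both genders were compared with limma 3.58.1 in R 4.3.3 (lmFit and eBayes, gender as a term, Benjamini-Hochberg adjustment over all features well above background on 4 arrays). The script was tested on simulated data. Python 3.11.15, numpy 2.4.6, pandas 2.3.3, scipy 1.17.1 and matplotlib 3.10.9 were used.

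Named loci were the 10 brightest, the 5 largest differences each way per gender with 3 or more agreeing probes, the 5 largest each way shared by both genders, the 3 most higher in each gender, those near a listed known noncoding RNA and those with a name on the array, each with its nearest array gene. The members and lists were chosen with earlier results of these data known. RefSeq gene names (GRCm38.p6) matched 21517 of 30651 array gene names and served for names and gene order, since the builds differ. Alternatives were another scaling, background correction, filter, detection flag, probe rule and fold, GC and array position trends, and other limma settings. Intervals cover counting error only.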

Additional observations from a re-analysis of the deposited data

Results flagged for a closer look

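The loci below were higher in M in one gender and lower in the other, and the difference between the genders was not tested, since each value compares 1 array with 1 array. Values are log2 differences, MF minus CF first and MM minus CM second. Higher in females and lower in males were chr6:83368261-83407280 (1.26 and -2.26), chr6:5311375-5328075 (5.17 and -1.46), chr17:39982023-39983277 (1.32 and -1.17) and chr6:145647711-145756861 (6.16 and -2.22). The same held for chr12:89519675-89533975 (1.18 and -2.20), chr5:33174092-33200792 (2.07 and -2.52), chr9:51905865-51911474 (3.03 and -0.91) and chr8:35650475-35664200 (2.38 and -1.21). Lower in females and higher in males were chr15:96597330-96663683 (-0.76 and 1.28), chr18:36449530-36456800 (-0.62 and 0.80), chr8:119092623-119094219 (-0.69 and 1.25) and chr11:3542140-3546888 (-0.68 and 1.15).

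Of the 368 lincRNA spots left out for an outlier flag, 249 (67.7%) were well above background on all 4 arrays, and 301 of the 368 carried the flag on MF.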

How the results depend on the processing

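Of 66 alternatives run on the counts and shares, 40 stayed within the limit of the main value. Loci over 1.5-fold in MF vs CF numbered 777 with normexp and quantile normalization and 807 at 2-fold, and loci with a shared direction 80 and 76 in these settings and 667 without a filter on dim probes. Detection on MF, MM, CF and CM was 70.4%, 74.4%, 60.6% and 60.8% with the positive and significant flag, and 44.6%, 48.5%, 36.4% and 35.0% with flagged spots kept. Loci whose probes all differed one way in MF vs CF made up 47.5% with median centring, 46.3% with normexp and quantile normalization, 47.2% without scaling and 41.6% with 3 or more probes. In MM vs CM they made up 53.2%, 45.7%, 51.9% and 47.2% in these settings and 51.7% with quantile normalization. Single-strand intervals numbered 300 with the looser flag and 323 where at least 50% of a strand's probes had to be detected. Limma called 5 of 1961 lincRNA loci with the array position trend removed (53 of 19246 features in all) and 25 of 2004 at an unadjusted p under 0.01 with 1.5-fold (163 of 19299).

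Of 97 named differences past 1.5-fold, 34 stayed past it in the same direction under all alternatives run, and 23 changed sign under at least one. With the mean over the probes of a locus, MF minus CF turned to -0.013 at chr4:141100989, -0.14 at chr18:38776580 (reverse), -0.027 at chr6:13801450, 0.072 at chr16:91174611 and 0.22 at chr15:62007025. MM minus CM turned to 0.18 at chr6:83368261, -0.92 at chr18:38776580 (reverse), 0.061 at chr18:38776580 (forward), -1.26 at chr15:96597330, -0.58 at chr6:83391748, -0.42 at chr6:13801450, 0.066 at chr8:35650475, -0.56 at chr12:110944403, -0.85 at chr15:61984389, 0.067 at chr19:5771425 and -0.89 at NRON. At chr6:116123643 MF minus CF turned to -0.052 with quantile normalization and -0.30 with normexp, which also turned MM minus CM to -0.081 at chr10:39666719, -0.61 at chr12:110944403 and 0.079 at chr14:115366426. Flagged spots kept gave -0.76 in MM minus CM at chr10:94870971. At chr3:126989696 MM minus CM turned to 2.29 with the GC trend removed and 0.17 with the position trend removed. The latter also gave 0.38 at chr11:3542140 and 2.18 at chr15:62007025 in MF minus CF, and 0.10 at chr14:115423660 and -0.050 at NRON in MM minus CM. The cause was not tested, apart from the probe rule, which by construction adds dim probes. No paired analysis was possible because each group had 1 array and no numbered replicates to pair, but the gender term of the limma fit sets M against C within gender, and without it limma also called 0 lincRNA loci, with 88 at an unadjusted p under 0.05. Without scaling, the median of all genes moved to 0.29 in MF minus CF and 0.49 in MM minus CM. Dim signals near background limit most loci.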
